A study of Arabidopsis thaliana with 45 samples.

Results

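The 10 genes described here belong to phosphate starvation signalling and lipid remodelling in Arabidopsis thaliana Columbia-0. They were chosen by gene identifier from a list of known pathway genes, with earlier results of these data known, and are 10 of the 28545 genes counted in the series. They are PHR1 (AT4G28610), SPX1 (AT5G20150), SPX3 (AT2G45130), IPS1 (AT3G09922), AT4 (AT5G03545), PHO2 (AT2G33770), PAP17 (AT3G17790), SQD2 (AT5G01220), MGD2 (AT5G20410) and MGD3 (AT2G11810). All 10 had counts in the files, and 9 passed the filter on low counts in every comparison, SPX3 being left out in the leaf comparisons.

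The series measured poly(A) RNA in 45 libraries of 15 groups with 3 libraries each, and phosphate supply was not among its treatments. Plants grew on Phytagel with 0.5x MS medium, on wire mesh coupons where a KFT was to follow, to an age of 7 days, with 8 h of dark storage on day 3, and were then sealed in a Kennedy Fixation Tube (KFT), a closed tube used to keep and fix plants on spaceflights. In the time course, roots (R) and leaves (L) were dissected from plants fixed after 4 h in the KFT (Q1), after 4 h 14 min (Q2), after 4 h 18 min (Q3) and after 4 h 28 min (Q4), as the labels give the times. The study's text places each of them 10 min earlier after sealing, which leaves the intervals between them as they are. Plants of group C spent, by the labels, the last 4 min on a clinostat, which rotates plants to average out the direction of gravity. The study's text gives the same 4 min where it describes the setup and a longer span where it reports the clinorotation results. Group C matches Q3 in total time. The root groups are thus CR, Q1R, Q2R, Q3R and Q4R and the leaf groups CL, Q1L, Q2L, Q3L and Q4L. A further set of roots came from 4 KFTs held for 4 h (Q1A, Q1B, Q1C and Q1D) and from plants left on a Petri plate (Q1P). Each library pools 2 plants. All 3 libraries of a condition came from a single KFT or from the plate, so an effect of that vessel and one of the treatment cannot be told apart, and p-values measure only the spread between these libraries.

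Plants short of phosphate are known to switch on a common set of genes through the transcription factor PHR1, which binds a short promoter motif called P1BS. When phosphate is ample, SPX proteins hold PHR1 back, and the ubiquitin-conjugating enzyme PHO2 limits phosphate transporters. Starvation induces the microRNA miR399, which lowers PHO2 transcripts, and the noncoding transcripts IPS1 and AT4, which bind miR399 without being cleaved and so restrain it. Acid phosphatases such as PAP17 recover phosphate from organic compounds, and the enzymes SQD2, MGD2 and MGD3 make sulfolipids and galactolipids that replace membrane phospholipids.

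The sites at which miR399 meets PHO2, IPS1 and AT4 are shown because 2 of these 3 transcripts had the clearest tissue difference of the 10 genes. Sequences and positions were taken from the RefSeq genome and annotation of build TAIR10.1, which places PHO2 at chr2:14277558-14283113 (minus strand), IPS1 at chr3:3050989-3051530 and AT4 at chr5:894582-895517 (both plus strand). The other members are PHR1 at chr4:14132811-14135292 and SQD2 at chr5:86543-90117 on the minus strand, and SPX1 at chr5:6802282-6803655, SPX3 at chr2:18606410-18607853, PAP17 at chr3:6089381-6091231, MGD2 at chr5:6896463-6898783 and MGD3 at chr2:4743162-4746813 on the plus strand. In that annotation miR399a to miR399f share the seed, bases 2 to 8, which is in capitals in the following mature sequences, read 5′ to 3′.
miR399a: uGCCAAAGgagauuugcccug
miR399b: uGCCAAAGgagaguugcccug
miR399d: uGCCAAAGgagauuugccccg
miR399e: uGCCAAAGgagauuugccucg
miR399f: uGCCAAAGgagauuugcccgg
The mature miR399c is identical to miR399b. Levels of the miR399 precursors are not analysed here.

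The PHO2 transcript held 5 matches to miR399 in its 5′ UTR, each with 2 mismatches to the closest family member and no bulge, all on the minus strand of chromosome 2. The outer and middle sites lie at chr2:14282106-14282126, chr2:14281884-14281904 and chr2:14281770-14281790. The stretch that pairs with the seed is in capitals in these 3 sites.
PHO2 first site: tagggcaaatcttCTTTGGCa
PHO2 middle site: ttgggcaaatctcCTTTGGCa
PHO2 last site: tagagcaaatctcCTTTGGCa
IPS1 (chr3:3051224-3051247, plus strand) and AT4 (chr5:895149-895172, plus strand) each held 1 match with a bulge of 3 bases, which is in capitals here.
IPS1 site: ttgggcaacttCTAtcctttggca
AT4 site: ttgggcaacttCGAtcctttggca
Outside the bulge each of these sites had 3 mismatches to miR399b and miR399c, and the annotation places both within a short open reading frame.

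The P1BS motif (the letters GNATATNC, its own reverse complement, so both strands read alike) was searched for from 250 bases before to 50 bases after each annotated start. It was found in 4 of the 10 member windows, those of SPX1, SPX3, AT4 and MGD2, and in 6.13% of 37897 windows of annotated nuclear genes. The motif is in capitals in the following stretches, numbered from the start of the gene.
SPX1, motif at 23 (chr5:6802294-6802321, plus strand): agagaaaaaaGGATATTCtaattagaaa
SPX3, motif at -213 (chr2:18606187-18606214, plus strand): attagagaccGAATATGCcagaggattt
SPX3, motif at -90 (chr2:18606310-18606337, plus strand): ctaaagctaaGCATATCCgctttcatat
AT4, motif at -26 (chr5:894546-894573, plus strand): ttggtaattgGCATATTCcttttagaag
MGD2, motif at -14 (chr5:6896439-6896466, plus strand): atatactactGAATATTCttttgttaat
MGD2, motif at 38 (chr5:6896490-6896512, plus strand, to the end of the window): cgaggaccttGAATATTCgaatc
A match is a description of these letters only. The genes without one in this window are PHR1, IPS1, PHO2, PAP17, SQD2 and MGD3.

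Total counts ran from 29203427 to 117091661 per library. The summed level of 6 leaf markers, such as RBCS1A and LHCB1.3, was 197 to 611 CPM (the count of a gene scaled to library size) in the 15 time-course and clinostat root libraries and 36726 to 65566 CPM in the 15 leaf libraries. That of 6 root markers, such as CASP1 and COBL9, was 5793 to 8208 CPM in those roots and 489 to 1474 CPM in leaves, where PYK10 alone gave 487 to 1472 CPM and the median of MYB36 was 0. One library stood apart. Q4L replicate 1 was the shallowest, with counts for 17817 genes, and 165 genes at 10 CPM or more in both other Q4L libraries were more than 10-fold below the lower of them there. The same count was at most 5 in each of the other 44 libraries. Its source label names Q3 while its title and treatment label name Q4, and it was taken as Q4.

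Levels are given in CPM after TMM normalization over all 45 libraries and, between genes, per kilobase of exon. Per kilobase, AT4 and PHO2 had the highest medians of the 10 genes in the 15 time-course and clinostat root libraries. The median of AT4 was 130.1 CPM per kilobase (range 54.5 to 219) and that of PHO2 64.0 (40.6 to 94.7), so their ranges overlapped. PHR1 followed at 33.5 (27.7 to 41.4), overlapping PHO2 only at the edge. SQD2 at 17.0 (12.7 to 20.4), SPX1 at 15.2 (9.29 to 30.7) and PAP17 at 11.9 (6.71 to 17.6) overlapped each other. IPS1 had a median of 4.201 CPM per kilobase (1.12 to 12.8) and MGD2 of 2.41 (1.51 to 3.80). MGD3 at 0.426 and SPX3 at 0.322 were near the limit of detection, with no count in 2 and 1 of these 15 libraries.

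In leaves the order per kilobase was different at the top. PHR1 had the highest median at 47.9 CPM per kilobase (34.6 to 56.1), ahead of AT4 at 25.3 (8.76 to 64.3), SPX1 at 22.1 (11.2 to 57.8) and SQD2 at 20.3 (15.1 to 25.2). The ranges of AT4, SPX1 and SQD2 overlapped each other, and PHR1 overlapped AT4 and SPX1 but not SQD2. PHO2 came next, at 12.8 (0.871 to 17.4), next to PAP17 at 9.18 (5.89 to 19.1). MGD2 at 2.87 and IPS1 at 2.69 were lower still, MGD3 was at 0.124, and SPX3 had no count in 11 of the 15 leaf libraries.

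**Figure D1:**
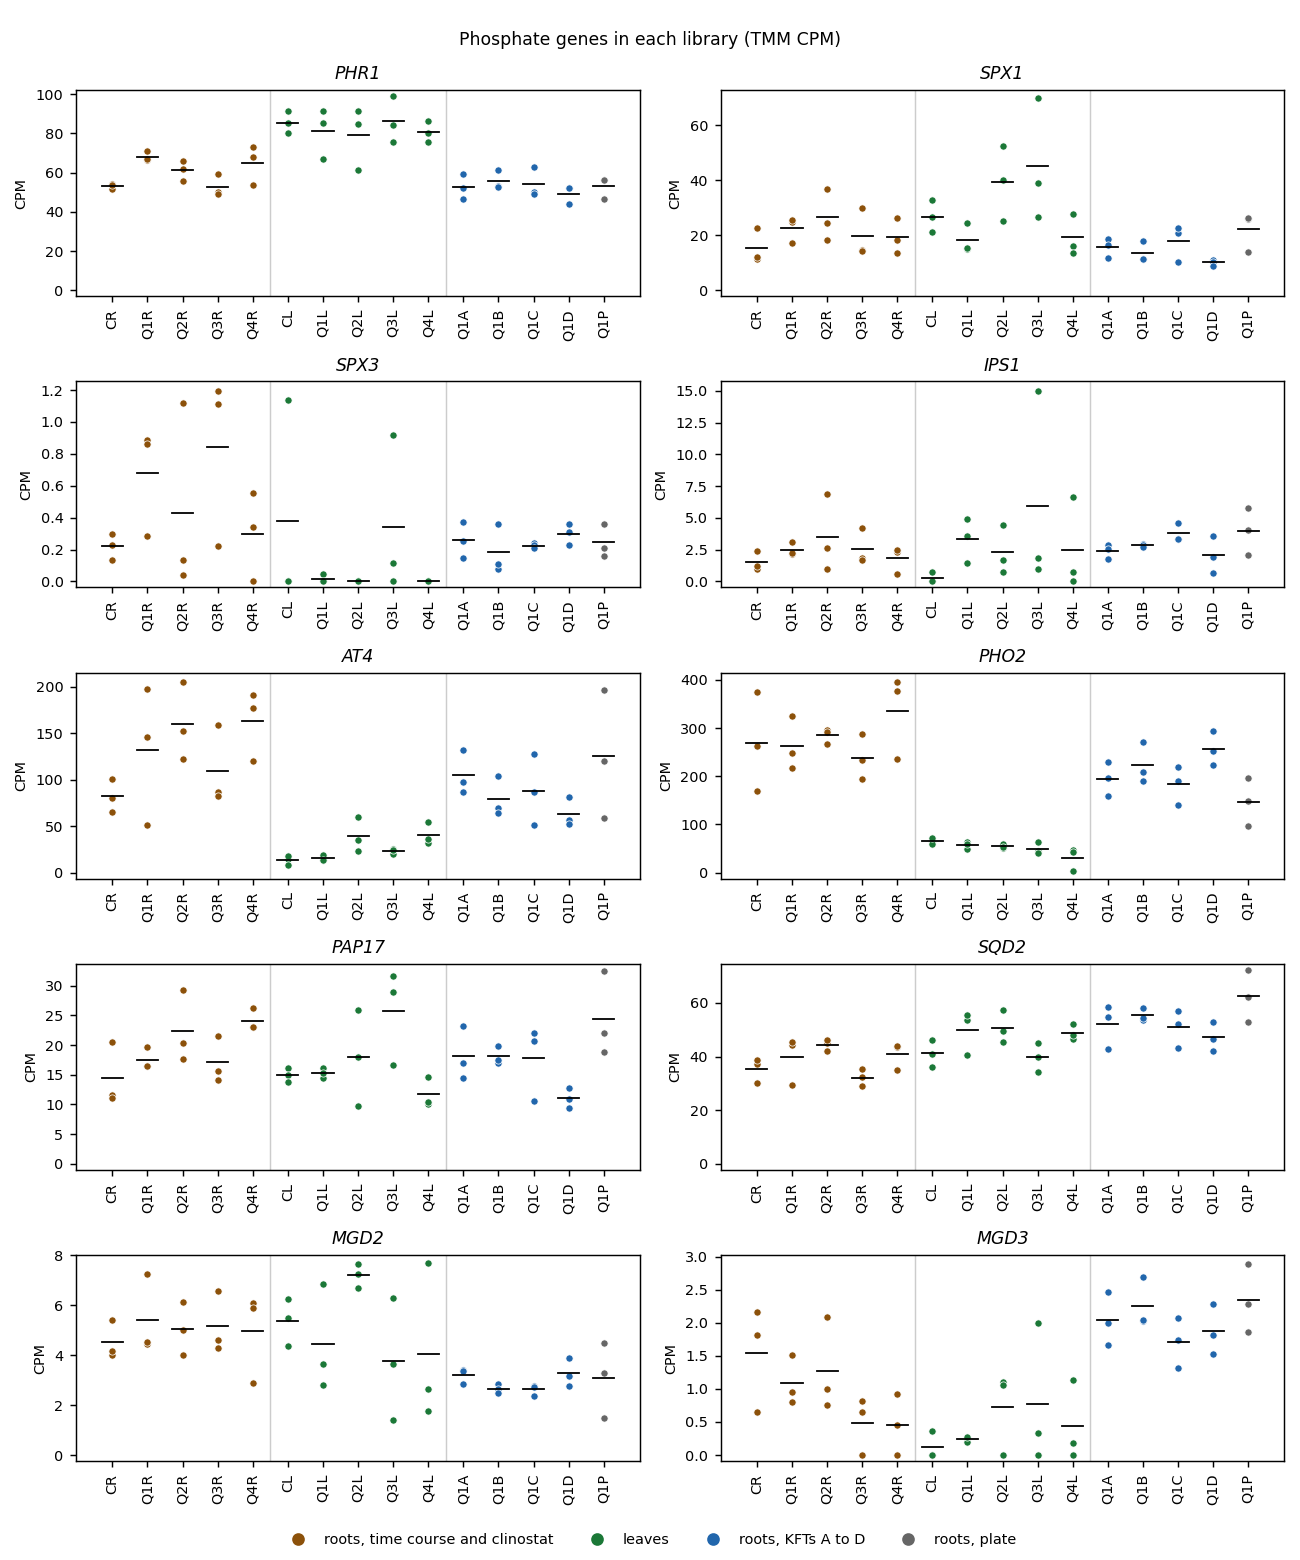
Level of each of the 10 genes (CPM after TMM normalization, linear axes from 0) in every library. Each point is 1 library, the bar is the mean of a group of 3, and colours mark roots of the time course and clinostat, leaves, roots of KFTs A to D and roots of the plate. PHO2 is at 169.5 CPM or more in all 15 of those roots and at 72.8 CPM or less in all 15 leaf libraries, and SPX3 and MGD3 have libraries at 0.

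Roots and leaves of the same conditions were compared over 15 libraries each, with the condition as a covariate. After TMM normalization AT4, PHO2 and SPX3 were higher in roots, and PHR1, SPX1 and SQD2 lower. This makes 6 of 10 genes called at an adjusted p of at most 0.05. Of the 22980 genes tested 74.8% were called, 38.9% higher and 35.9% lower in roots. The share among the 10 is thus not above the background, and 10 genes are too few to place it below. DESeq2 called the same number of the 10 and 71.5% of all genes it tested. Fewer cells of a type and less RNA per cell cannot be told apart in whole roots and leaves.

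PHO2, the conjugating enzyme that miR399 targets, showed the clearest separation. It ran from 169.5 CPM in CR replicate 2 to 396 CPM in Q4R replicate 2 (median 267 CPM) across the roots, and from 3.64 to 72.8 CPM (median 53.3 CPM) across the leaves. No root library was as low as any leaf library. The log2 fold change was 2.48 ± 0.22 (SE), or 5.57-fold, with an adjusted p of 2.6e-11 (edgeR's quasi-likelihood test). The lowest leaf value came from Q4L replicate 1. Without that library the log2 fold change was 2.35 ± 0.12, with an adjusted p of 1.0e-16.

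AT4, one of the miR399 decoys, was higher in roots by 2.39 ± 0.19 on the log2 scale (5.24-fold, adjusted p = 2.1e-12). It ran from 51.0 to 205 CPM in roots (median 122 CPM) and from 8.20 to 60.2 CPM in leaves (median 23.7 CPM). The ranges overlapped through Q1R replicate 1 at 51.0 CPM and Q2L replicate 1 and Q4L replicate 3 at 60.2 and 54.1 CPM. The other decoy, IPS1, had medians of 2.28 CPM in roots and 1.46 CPM in leaves. Its log2 fold change of 0.14 ± 0.60 (adjusted p = 0.84) left both a higher and a lower level in roots within the error.

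SPX3, an SPX repressor, had 0 to 1.20 CPM in roots and 0 to 1.14 CPM in leaves, and had no count in 11 leaf libraries and 1 root library. Its log2 fold change was 3.44 ± 1.22 (adjusted p = 0.013), a fitted value that is no bound. SPX1, the second SPX repressor, was lower in roots, with a median of 18.3 CPM (11.2 to 37.0 CPM), against 26.6 CPM in leaves (13.5 to 69.7 CPM). Its log2 fold change was -0.45 ± 0.20 (adjusted p = 0.042). The call of SPX1 was lost when any of 16 single libraries of the 30 was left out, with adjusted p between 0.051 and 0.088, and without the clinorotated libraries (-0.35, adjusted p = 0.17).

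PHR1, the transcription factor at the head of the pathway, was modestly lower in roots. Its level was 49.1 to 73.3 CPM in roots (median 59.3 CPM) and 61.3 to 99.4 CPM in leaves (median 84.8 CPM), and the log2 fold change was -0.46 ± 0.07 (adjusted p = 1.3e-06). Without TMM the group means overlapped, at 56.4 to 75.9 CPM in roots and 67.9 to 74.3 CPM in leaves. At Q1 and Q4 the root mean was then the higher one, so this difference depends on the normalization. RefSeq places 59 bases of PHR1 under a gene on the opposite strand, and 122 bases of PAP17 likewise. Whether counting used the strand is not given in the sources used here, so a share of reads from those neighbours cannot be told apart.

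Among the lipid genes only SQD2, a sulfolipid synthase, passed the test, at 28.9 to 46.3 CPM in roots (median 38.7 CPM) and 34.4 to 57.4 CPM in leaves (median 46.3 CPM). Its log2 fold change was -0.25 ± 0.07 (adjusted p = 0.0023). Without TMM its group means were 34.2 to 48.2 CPM in roots and 33.1 to 44.3 CPM in leaves. The root mean was then the higher one in every condition, so the direction of this call depends on the normalization. The galactolipid synthase MGD2 had 2.89 to 7.26 CPM in roots and 1.40 to 7.70 CPM in leaves (log2 fold change 0.07 ± 0.21, adjusted p = 0.79). MGD3, its close relative, had 0 to 2.16 CPM in roots and 0 to 1.99 CPM in leaves (1.17 ± 0.89, adjusted p = 0.24). The phosphatase PAP17 was close in both tissues, with 11.1 to 29.2 CPM in roots and 9.76 to 31.7 CPM in leaves (0.19 ± 0.16, adjusted p = 0.28).

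A wider list of 61 phosphate genes gave 51 that could be tested between tissues, and 30 were higher and 9 lower in roots. These 39 of 51 stand beside the 74.8% of all genes called (38.9% higher and 35.9% lower). The median log2 fold change was 0.43 over those 51 genes and 0.05 over all genes tested. Of the 11 transporters tested 8 were higher in roots, where 38.9% of all genes were, and 0 lower. Among them PHO1, which loads phosphate into the xylem, had a log2 fold change of 5.06 ± 0.18 and the uptake carrier PHT1;1 one of 5.93 ± 0.52. Of the 10 lipid genes tested 5 were higher, including the phospholipase NPC4 (3.68 ± 0.49), and 4 were lower, against those same shares of 38.9% and 35.9% of all genes. Those lower were MGD1 (-2.46 ± 0.08) and DGD1 (-1.49 ± 0.08), the main galactolipid synthases of plastids, and SQD1 (-2.01 ± 0.09) and UGP3 (-2.86 ± 0.11), which supply sulfolipid synthesis.

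**Figure D2:**
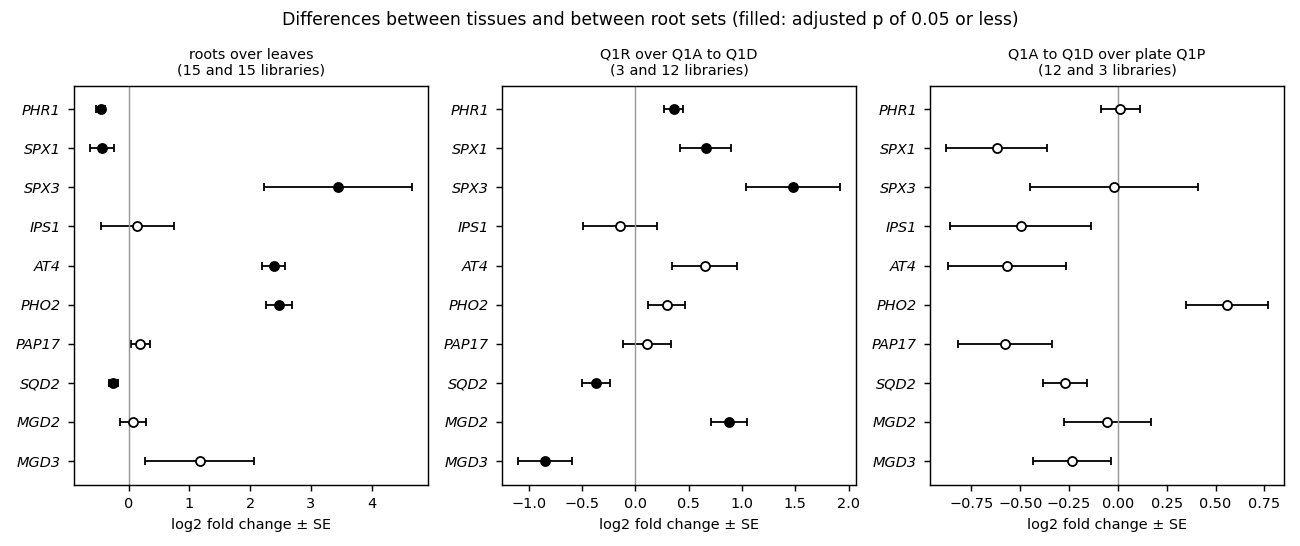
Log2 fold changes (points) with SE (bars) from edgeR for the 10 genes between tissues, between Q1R and Q1A to Q1D, and between Q1A to Q1D and the plate, each panel on its own axis. Filled points have an adjusted p of at most 0.05: 6 of 10 in the first panel, 6 of 10 in the second and 0 of 10 in the third.

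The KFT set asked whether sealing plants in a KFT changes their roots. None of the 10 genes differed between Q1A to Q1D (12 libraries) and the plate (3 libraries) at the adjusted threshold, where 0.979% of 21958 genes were called, 0.574% higher and 0.405% lower. DESeq2 also called 0 of the 10, against 2.27% of all genes, and 4 had an unadjusted p under 0.05 in edgeR, as did 9.31% of all genes. Those 4 were SPX1, PAP17 and SQD2, which were lower in the KFTs, and PHO2, which was higher.

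SPX1 had 8.91 to 22.6 CPM in the 12 KFT libraries (median 11.7 CPM) and 26.1, 26.3 and 14.0 CPM on the plate, so its log2 fold change was -0.62 ± 0.26 (adjusted p = 0.45). PAP17 had 9.34 to 23.2 CPM in the KFTs (median 16.9 CPM) and 22.0, 32.5 and 18.9 CPM on the plate (-0.58 ± 0.24, adjusted p = 0.44). Plate replicate 3 lay among the KFT libraries for both genes, and it was also the lowest plate library for AT4. AT4 had 50.8 to 132 CPM in the KFTs (median 83.7 CPM) and 120.0, 197 and 58.8 CPM on the plate (-0.57 ± 0.30, adjusted p = 0.61).

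PHO2 ran the other way, with 141 to 294 CPM in the KFTs (median 215 CPM) and 96.0, 149 and 196 CPM on the plate. The ranges overlapped, and the log2 fold change was 0.56 ± 0.21 (adjusted p = 0.36). SQD2 had 42.1 to 58.5 CPM in the KFTs (median 53.2 CPM) and 62.3, 52.7 and 72.4 CPM on the plate (-0.27 ± 0.11, adjusted p = 0.45). PHR1 was at 53.0 ± 5.69 CPM in the KFTs (SD, n = 12) and 53.1 ± 5.65 CPM on the plate (SD, n = 3), with a log2 fold change of 0.01 ± 0.10. The remaining genes IPS1, SPX3, MGD2 and MGD3 had log2 fold changes between -0.50 and -0.02, with SE between 0.20 and 0.43. Of the 51 other phosphate genes tested edgeR called 0, with 8 at an unadjusted p under 0.05, where 9.31% of all genes were. The log2 fold change was below 0 for 36 of the 51 and above 0 for 15, with a median of -0.077, against 0.0003 over all genes. All of these values share the same plate libraries.

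The 4 KFTs of the set are replicate vessels. Among them 0 of the 10 genes and 0% of 21794 genes were called in edgeR's F test of any difference, and DESeq2 called 0 of the 10 and 0.39% of all genes. PAP17 had the lowest p of the 10 (unadjusted p = 0.042, adjusted p = 0.89). Its mean was 18.2 ± 4.52 CPM in Q1A, 18.1 ± 1.55 CPM in Q1B, 17.8 ± 6.26 CPM in Q1C and 11.05 ± 1.74 CPM in Q1D (SD, n = 3 each). SPX1 was likewise lowest in Q1D, at 10.12 ± 1.14 CPM, against 13.6 to 17.9 CPM as means of the other KFTs (unadjusted p = 0.064).

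Q1R of the time course and Q1A to Q1D of the KFT set share the label Q1, roots and 4 h in a KFT, but belong to different sets. Between them edgeR called 28.9% of 22032 genes, and set and vessel cannot be told apart. The number of genes with a count was 20861 to 22319 in the Q1R libraries and 23359 to 24668 in the Q1A to Q1D libraries. Of the 10 phosphate genes 6 were called, 4 higher and 2 lower in Q1R, where 12.5% of all genes tested were called higher and 16.4% lower. DESeq2 also called 6 of the 10, and 30.4% of all genes.

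MGD2, for which no single library decided the call, had 4.46, 7.26 and 4.54 CPM in Q1R and 2.38 to 3.88 CPM in Q1A to Q1D (median 2.81 CPM), without overlap. Its log2 fold change was 0.88 ± 0.17 (adjusted p = 0.00098). Its relative MGD3 was lower in Q1R, with 0.960, 0.796 and 1.51 CPM in Q1R and 1.32 to 2.69 CPM in Q1A to Q1D (-0.85 ± 0.25, adjusted p = 0.018). SQD2 had 29.3, 44.4 and 45.5 CPM in Q1R and 42.1 to 58.5 CPM in Q1A to Q1D (-0.37 ± 0.13, adjusted p = 0.042). Without Q1R replicate 1, the lowest of the 3, its log2 fold change was -0.19 (adjusted p = 0.30).

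PHR1 had 66.5, 71.0 and 66.7 CPM in Q1R and 44.1 to 62.9 CPM in Q1A to Q1D, again without overlap (0.36 ± 0.09, adjusted p = 0.0060). SPX1 had 17.2, 24.7 and 25.7 CPM in Q1R, against a median of 11.7 CPM and a highest value of 22.6 CPM in Q1A to Q1D (0.66 ± 0.24, adjusted p = 0.049). SPX3 had 0.888, 0.862 and 0.283 CPM in Q1R and 0.0757 to 0.371 CPM in Q1A to Q1D (1.48 ± 0.44, adjusted p = 0.018). The calls of SPX3 and MGD3 were lost without Q1R replicate 1 or 2, with adjusted p of 0.092 and 0.081 for SPX3 and 0.072 and 0.088 for MGD3. That of SPX1 was lost without any of 10 of the 15 libraries (adjusted p 0.054 to 0.18) and that of SQD2 without any of 9 (0.055 to 0.30). With a spread shared by all 30 root libraries, 3 genes were called, PHR1, SQD2 and MGD2.

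The other 4 genes were not called between these sets. AT4 had 51.0, 198 and 146 CPM in Q1R and 50.8 to 132 CPM in Q1A to Q1D (0.65 ± 0.31, adjusted p = 0.12), and without Q1R replicate 1, the lowest, it was called (1.03, adjusted p = 0.017). PHO2 had 325, 216 and 248 CPM in Q1R and 141 to 294 CPM in Q1A to Q1D (0.29 ± 0.17, adjusted p = 0.22). The log2 fold changes of PAP17 and IPS1 were 0.11 ± 0.23 and -0.14 ± 0.35, and the ranges of both overlapped.

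Of the other phosphate genes 16 of 51 were called between these sets, 12 higher and 4 lower in Q1R, beside 28.9% of all genes (12.5% higher and 16.4% lower). The one with the lowest p was PHT1;2 (AT5G43370), a phosphate uptake carrier of roots, at 10.7 ± 1.28 CPM in Q1R (SD, n = 3) and 53.3 to 128 CPM in Q1A to Q1D (median 70.0 CPM). Its log2 fold change was -2.85 ± 0.24 (adjusted p = 4.8e-07). Its close homologue PHT1;1 was not called (0.19 ± 0.15, adjusted p = 0.38), and because the coding sequences of the PHT1 neighbours are very alike, how reads were divided between them is uncertain. G3Pp1, a glycerol-3-phosphate permease induced by starvation, was higher in Q1R by 0.73 ± 0.22 (adjusted p = 0.018), and NPC4 by 1.08 ± 0.24 (adjusted p = 0.0027).

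The time course asked how roots and leaves change over the minutes that separate Q4 from Q1. In roots edgeR called none of the 10 genes at Q2, Q3 or Q4 against Q1, where it called 0.363%, 4.54% (2.75% higher and 1.79% lower) and 0.913% of all genes tested. At an unadjusted p under 0.05 there were 0, 1 and 1 of the 10, beside 11.2%, 21.3% and 10.6% of all genes. DESeq2 called 0, 1 and 0, against 2.12%, 11.1% and 2.59% of all genes it tested, and gave SPX3 and MGD3 no adjusted p at Q3. The gene that DESeq2 called was PHR1, at 50.3, 49.1 and 59.3 CPM in Q3R and 66.5, 71.0 and 66.7 CPM in Q1R. These values did not overlap. The log2 fold change was -0.37 ± 0.12 in edgeR (adjusted p = 0.090) and -0.37 ± 0.13 in DESeq2 (adjusted p = 0.032). At Q4R the values of PHR1 overlapped those of Q1R, with 73.3, 68.1 and 53.9 CPM.

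PAP17 was 16.5, 19.7 and 16.5 CPM in Q1R, 29.2, 17.6 and 20.3 CPM in Q2R, 21.5, 15.6 and 14.1 CPM in Q3R and 26.3, 23.1 and 23.1 CPM in Q4R. The Q4R values lay above all of Q1R, and the log2 fold change of 0.45 ± 0.17 had an unadjusted p of 0.019 and an adjusted p of 0.31. AT4 varied more within groups than between them. It had 51.0, 198 and 146 CPM in Q1R, 205, 153 and 122 CPM in Q2R, 159, 86.3 and 82.8 CPM in Q3R and 119.8, 177 and 191 CPM in Q4R.

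PHO2 averaged 263 ± 55.9 CPM in Q1R, 285 ± 15.6 CPM in Q2R, 239 ± 46.8 CPM in Q3R and 336 ± 87.6 CPM in Q4R (SD, n = 3 each), and its log2 fold changes against Q1R lay between -0.15 and 0.34. SPX1 averaged 22.5 ± 4.63 CPM in Q1R, 26.6 ± 9.502 CPM in Q2R, 19.6 ± 8.79 CPM in Q3R and 19.3 ± 6.33 CPM in Q4R. MGD2 and SQD2 had log2 fold changes between -0.31 and 0.16 at the 3 times. IPS1, SPX3 and MGD3 had SE of 0.48 to 1.59 on the log2 scale. MGD3 was at 0 in 1 library each of Q3R and Q4R and SPX3 at 0 in 1 library of Q4R.

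Of 48 to 49 other phosphate genes tested in these root comparisons, PHT1;2 was called at Q2R (-1.28 ± 0.19, adjusted p = 0.022) and Q3R (-1.35 ± 0.26, adjusted p = 0.016). Its level was 4.22 to 4.63 CPM in Q2R and 3.31 to 5.69 CPM in Q3R, against 9.27 to 11.6 CPM in Q1R. At Q4R it had 4.72 to 5.34 CPM (-1.11 ± 0.25, adjusted p = 0.054). These comparisons share the Q1R libraries. ALMT1, a malate channel of the local root response to low phosphate, was called at Q3R with 17.9 to 32.3 CPM, against 7.34 to 13.3 CPM in Q1R (1.14 ± 0.26, adjusted p = 0.033). No other gene of the list was called in roots at these times.

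In leaves edgeR called none of the 9 members tested at Q2, Q3 or Q4 against Q1, where it called 0%, 0.00979% and 0% of all genes tested. At an unadjusted p under 0.05 there were 2, 3 and 1 of the 9, beside 6.1%, 3.37% and 3.58% of all genes. DESeq2 called 2, 0 and 1, against 0.726%, 0.256% and 0.188% of all genes it tested, and the genes were SPX1 and AT4 at Q2 and AT4 at Q4.

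AT4 in leaves had 13.5, 18.6 and 13.6 CPM in Q1L, 60.2, 23.7 and 35.0 CPM in Q2L, 25.6, 20.6 and 24.4 CPM in Q3L and 31.7, 36.5 and 54.1 CPM in Q4L. All libraries of the 3 later groups lay above those of Q1L. The log2 fold changes were 1.39 ± 0.30 at Q2 (unadjusted p = 0.00092, adjusted p = 0.30), 0.65 ± 0.21 at Q3 (0.012, adjusted p = 1.00) and 1.45 ± 0.26 at Q4 (0.00066, adjusted p = 0.95) in edgeR. DESeq2 gave 1.39 ± 0.32 at Q2 (adjusted p = 0.0039) and 1.45 ± 0.30 at Q4 (adjusted p = 0.0014). Without Q4L replicate 1, edgeR gave 1.57 ± 0.23 at Q4 (adjusted p = 0.39). The 3 comparisons share the Q1L libraries, and the summed root markers were 832 to 1474 CPM in Q1L, 489 to 1123 CPM in Q2L, 830 to 1320 CPM in Q3L and 752 to 982 CPM in Q4L. In leaves that sum is almost all PYK10. The part of root tissue in the AT4 values was not tested.

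SPX1 in leaves had 24.4, 14.8 and 15.5 CPM in Q1L, 52.5, 25.3 and 39.9 CPM in Q2L, 38.8, 26.7 and 69.7 CPM in Q3L and 16.2, 13.5 and 27.9 CPM in Q4L. The Q2L and Q3L libraries were all above Q1L, and Q4L overlapped it. The log2 fold changes in edgeR were 1.11 ± 0.28 at Q2 (unadjusted p = 0.0028, adjusted p = 0.40), 1.32 ± 0.35 at Q3 (0.0041, adjusted p = 1.00) and 0.10 ± 0.36 at Q4. DESeq2 gave 1.11 ± 0.31 at Q2 (adjusted p = 0.044). PAP17 had 31.7, 16.7 and 29.0 CPM in Q3L, above the 14.5, 16.1 and 15.2 CPM in Q1L in every library, with a log2 fold change of 0.77 ± 0.25 (unadjusted p = 0.012, adjusted p = 1.00).

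PHO2 in leaves averaged 57.4 ± 7.21 CPM in Q1L, 54.3 ± 3.88 CPM in Q2L, 49.7 ± 12.04 CPM in Q3L and 30.9 ± 23.7 CPM in Q4L (SD, n = 3 each). The Q4L libraries had 3.64, 46.6 and 42.6 CPM, and the log2 fold change was -0.89 ± 0.71 with Q4L replicate 1 and -0.37 ± 0.15 without it (adjusted p = 0.95 and 0.74). IPS1 in that library had no count, and the other Q4L libraries had 6.63 and 0.709 CPM. PHR1 and SQD2 had log2 fold changes between -0.31 and 0.11 in leaves, with SE of 0.16 to 0.20. MGD2 had 7.66, 6.69 and 7.26 CPM in Q2L and 3.64, 6.87 and 2.82 CPM in Q1L (0.72 ± 0.40, adjusted p = 0.87). None of the 46 to 47 other phosphate genes tested in leaves was called at any of the 3 times.

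**Figure D3:**
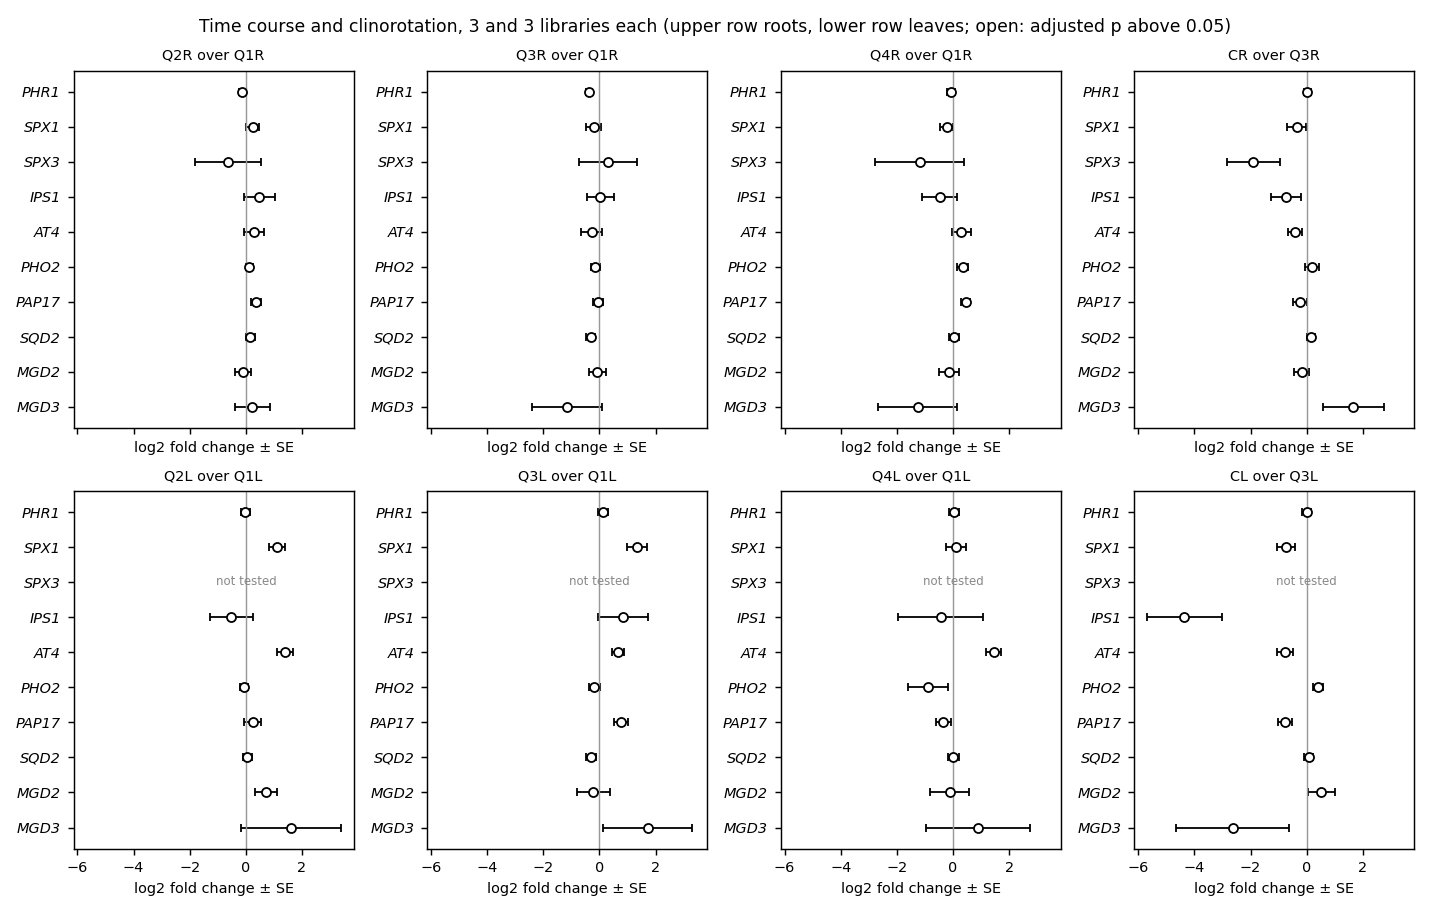
Log2 fold changes (points) with SE (bars) from edgeR for the 10 genes at the 3 later times over Q1 and in clinorotated plants over Q3, roots above and leaves below, on a common axis. All points are open, since none has an adjusted p of at most 0.05, and SPX3 was not tested in leaves. SPX1 and AT4 lie to the right of 0 at Q2L and Q3L and to the left of it at CL over Q3L. Q3L over Q1L and CL over Q3L share the Q3L libraries.

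Clinorotated plants were set against Q3, which matches them in total time. edgeR called none of the 10 genes in roots and none of the 9 tested in leaves, where it called 0.00475% and 0% of all genes. DESeq2 also called none of them, against 2.75% and 0.565% of all genes it tested. In roots it gave no adjusted p for SPX3, IPS1, MGD2 and MGD3, and its unadjusted p for SPX3 was 0.030. In edgeR 0 of the 10 in roots and 4 of the 9 in leaves had an unadjusted p under 0.05. The shares of all genes at that threshold were 13.9% and 7.15%. The 4 leaf genes were IPS1, AT4, PAP17 and SPX1, all lower in CL. The Q3L libraries are the same as those set against Q1L above. Mean levels in CL and Q1L were 13.6 and 15.3 CPM for AT4 and 15.0 and 15.3 CPM for PAP17. They were 26.8 and 18.2 CPM for SPX1 and 0.283 and 3.31 CPM for IPS1. The part of the Q3L levels in the differences between CL and Q3L was not tested.

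AT4 had 14.6, 18.1 and 8.20 CPM in CL and 25.6, 20.6 and 24.4 CPM in Q3L, without overlap (-0.77 ± 0.28, unadjusted p = 0.018, adjusted p = 0.56). PAP17 had 16.1, 15.0 and 13.8 CPM in CL and 31.7, 16.7 and 29.0 CPM in Q3L, again without overlap (-0.77 ± 0.24, unadjusted p = 0.0090, adjusted p = 0.47). SPX1 had 32.6, 26.6 and 21.0 CPM in CL and 38.8, 26.7 and 69.7 CPM in Q3L (-0.74 ± 0.31, adjusted p = 0.65). IPS1 had 0.774, 0 and 0.0739 CPM in CL and 15.0, 1.84 and 0.944 CPM in Q3L. Its unadjusted p was 0.0071 (adjusted p = 0.45), and Q3L replicate 1 held most of the Q3L level. The summed root markers were 534 to 702 CPM in CL and 830 to 1320 CPM in Q3L. In leaves this sum is almost all PYK10, so it gives the level of that gene rather than of all the markers. Between tissues AT4 was called higher in roots and SPX1 lower, and PAP17 and IPS1 were not called. The part of root tissue in these values was not tested.

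In roots AT4 had 80.2, 100.8 and 65.0 CPM in CR and 159, 86.3 and 82.8 CPM in Q3R (-0.41 ± 0.24, adjusted p = 0.48). SPX1 had 11.2, 22.6 and 12.04 CPM in CR and 29.8, 14.8 and 14.3 CPM in Q3R (-0.36 ± 0.33, adjusted p = 0.65). PHO2 had 375, 169.5 and 262 CPM in CR and 288, 194 and 235 CPM in Q3R (0.18 ± 0.24, adjusted p = 0.78). PHR1 was nearly the same in both groups, at 53.3 ± 1.49 CPM in CR and 52.9 ± 5.57 CPM in Q3R (SD, n = 3 each), with a log2 fold change of 0.02 ± 0.12. SPX3 had 0.295, 0.137 and 0.226 CPM in CR and 1.11, 0.223 and 1.20 CPM in Q3R (-1.90 ± 0.93, adjusted p = 0.39), and MGD3 had 1.82, 2.16 and 0.658 CPM in CR and 0.821, 0.647 and 0 CPM in Q3R (1.65 ± 1.09, adjusted p = 0.52). Both genes overlapped between the groups. The log2 fold changes of PAP17, SQD2, MGD2 and IPS1 in roots lay between -0.74 and 0.14. None of the 48 other phosphate genes tested in either tissue was called by edgeR, with 7 in roots and 4 in leaves at an unadjusted p under 0.05, where 13.9% and 7.15% of all genes were.

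The root change minus the leaf change was tested for each of the 3 later times and for clinorotation. edgeR called none of the 10 genes, where it called 0.0977% of all genes at Q2, 0.0089% at Q3, 0.00889% at Q4 and 0.0311% (0.0267% higher and 0.00445% lower) for clinorotation. DESeq2 also called none of the 10, against 2.01%, 1.38%, 0.699% and 1.92% of all genes. In edgeR 0, 3, 1 and 1 of the 10 had an unadjusted p under 0.05. The all-gene shares at that unadjusted threshold were 10.6%, 10.6%, 6.23% and 12.3%. At Q3 the root change lay below the leaf change for all 3, with log2 differences of -1.55 ± 0.54 for SPX1 (unadjusted p = 0.014, adjusted p = 0.39), -0.83 ± 0.34 for PAP17 (0.029, adjusted p = 0.42) and -0.50 ± 0.20 for PHR1 (0.029, adjusted p = 0.42). At Q4 the root change of PAP17 lay above its leaf change, by 0.80 ± 0.29 (unadjusted p = 0.017, adjusted p = 0.76). For clinorotation IPS1 had a difference of 3.64 ± 1.66 (unadjusted p = 0.047, adjusted p = 0.40). For none of the 10 genes was a tissue difference in response shown.

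SPX1, PAP17 and AT4 varied together from library to library in roots. Over the 30 root libraries SPX1 and PAP17 had a Pearson r of 0.77 on log2 CPM, SPX1 and AT4 of 0.75, and AT4 and PAP17 of 0.74. After each group's mean was subtracted, the same pairs had r of 0.78, 0.67 and 0.65. In the 15 leaf libraries the r of the levels was 0.77 for SPX1 and PAP17 but 0.30 for SPX1 and AT4 and 0.16 for AT4 and PAP17, and after subtraction the values were 0.74, 0.58 and 0.77. Other leaf pairs were about as high after subtraction, such as IPS1 and PHO2 (0.73) and MGD2 and MGD3 (0.68). Q4L replicate 1 is among these leaf libraries. These correlations are descriptions, since all 3 libraries of a condition come from a single vessel.

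Among the 22733 genes that passed the filter in roots, the gene most like SPX1 was G3Pp1 (r = 0.88), followed by PAP17 (0.77) and AT4 (0.75). Likeness was taken on the levels, without subtraction of group means, so differences between groups and between the root sets enter it. The genes most like PAP17 were SPX1, AT4 and AT5G67430 (0.77, 0.74 and 0.73), and those most like AT4 were the amino acid transporter AAT1, SPX1 and PAP17 (0.78, 0.75 and 0.74). In leaves G3Pp1 was the gene most like PAP17 (0.85), and SPX1 was most like PYR6, G3Pp1 and the SPX family member SPX2 (0.83, 0.79 and 0.79). AT4 in leaves was most like AT2G05590, AT5G36230 and PIP3 (0.86, 0.83 and 0.82), with neither SPX1 nor PAP17 among the first 3. G3Pp1 itself ran from 24.2 to 59.6 CPM in the time-course and clinostat roots, from 17.9 to 42.2 CPM in the KFT libraries and from 22.2 to 78.3 CPM in leaves.

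In roots no other member was among the 3 genes most like SPX1, PAP17 or AT4. PHR1 was most like SPP1, UBP3 and NAC069 in roots (r = 0.84, 0.81 and 0.80), and PHO2 most like HK1, BXL2 and AT1G55090 (0.81, 0.80 and 0.80). SQD2 was most like UPS3, AT2G37540 and the ribonuclease RNS2 (0.88, 0.86 and 0.86). MGD2 was most like AT3G28140, AT1G67410 and AT3G28040 (0.83, 0.83 and 0.82), and MGD3 most like AT1G71280, AT4G18280 and AT2G30942 (0.89, 0.88 and 0.88). SQD2, MGD2 and MGD3 differed between Q1R and Q1A to Q1D, and that difference enters these r. SQD2 and MGD2 had r of -0.41 on the levels and 0.51 after subtraction. For SQD2 and MGD3 the values were 0.53 and 0.18. PHO2 and SPX1 ran weakly opposite in roots, with r of -0.20 on the levels and -0.43 after subtraction. IPS1, most like RAS1 at 0.69, had r of 0.30 with AT4, the other decoy, and 0.46 with SPX1 on the levels. After subtraction these were 0.46 and 0.53.

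In leaves the likeness of PHO2 rested on Q4L replicate 1. With it, the genes most like PHO2 were AT5G14880, AT4G26960 and ABCI7, with r of at least 0.986. Over the other 14 leaf libraries those genes had r of 0.80, 0.77 and 0.74, and AT3G05945, BOR1 and AT1G49750 came first (0.89, 0.87 and 0.87). Without that library G3Pp1 remained among the 3 genes most like PAP17 (0.83), whereas those most like SPX1 became AT5G27850, P40 and SPX2 (0.86, 0.86 and 0.82).

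**Figure D4:**
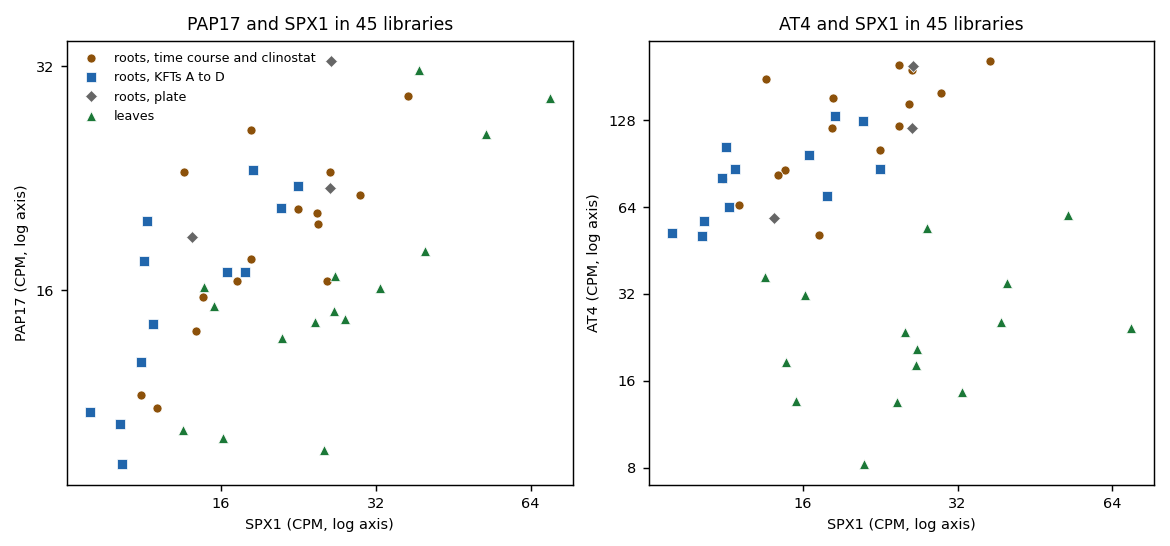
PAP17 (left) and AT4 (right) against SPX1 in all 45 libraries, in CPM on log axes, 1 point a library and 1 symbol a set. In roots both genes are higher where SPX1 is higher (Pearson r of 0.77 and 0.75 over 30 libraries), and most leaf libraries lie below the roots for AT4.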

How the data were processed

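The authors made directional poly(A) libraries, trimmed reads with cutadapt, mapped them with STAR, removed duplicates with samtools and counted unique reads per gene with HTSeq against a TAIR10 annotation. The deposited tables hold these raw counts, beside log2 fold changes and p-values from the authors' own DESeq2 comparisons, which were not used. The 24 tables were joined into 45 libraries, and 0 of 2955609 repeated values differed between tables.

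For every comparison edgeR 4.0.16 (R 4.3.3) was run on the libraries involved, using filterByExpr, TMM and the quasi-likelihood test, with Benjamini-Hochberg adjustment over all genes tested and a call at an adjusted p of at most 0.05. The SE given after ± beside log2 fold changes comes from the same model. DESeq2 1.42.0, RLE normalization, no filter, a shared spread, a replicate block, other controls and leaving out each library were alternatives. The scripts were tested on simulated data. Log2 CPM for correlations used a prior count of 2, and the 3 most similar genes were sought for members with a mean of at least 1 CPM in the tissue, which left out SPX3 and, in leaves, MGD3. Names and sequences came from RefSeq TAIR10.1, where 28285 genes matched by locus tag.

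The 10 genes were named in every group. Other phosphate genes were named where they passed a test or supply a comparison, some after their values were seen. The members, the list of 61 further phosphate genes and the markers were chosen with earlier results of these data known. Replicates of a group differed by more than counting noise, with a chi-square per gene of at least 20.7 in all 45 pairs.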

Additional observations from a re-analysis of the deposited data

How the results depend on the processing

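Of the alternative values for single genes, 2474 stayed on the same side of the threshold, 45 lost a call, 8 gained one and 0 reversed, while 151 that were not called had the other sign. Each of those fits kept a normalization between libraries, and none was run on total counts alone. The number of the 10 genes called stayed at 0 for KFT against plate, among the 4 KFTs, for Q2R and Q4R against Q1R, for Q3L against Q1L, for CR against Q3R and for the 4 interactions under every alternative run, each of the other controls, each KFT alone and counts summed per vessel included. It changed in the other comparisons. Between Q1R and Q1A to Q1D it was 6, against 3 with a shared spread, 5 without the filter on low counts (SPX1 lost, adjusted p = 0.057) and 3 to 6 when libraries were left out in turn. DESeq2 gave 1 for Q3R against Q1R (PHR1), 2 for Q2L (SPX1 and AT4) and 1 for Q4L against Q1L (AT4), where edgeR gave 0. Without that filter, edgeR gave 1 for Q2L against Q1L (AT4, adjusted p = 0.041) and 1 for CL against Q3L (IPS1, adjusted p = 0.048). Between tissues it was 6, against 5 with RLE normalization (SPX1 lost, adjusted p = 0.050) and without the clinorotated libraries (SPX1 lost, adjusted p = 0.17), and 5 or 6 when libraries were left out in turn. The causes were not tested. Replicate numbers are shared between groups, but no source ties them to a batch. Same-numbered libraries of different groups had a mean correlation of their deviations from the group mean of 0.059 in the KFT set and plate, 0.031 in roots and -0.005 in leaves, against -0.028, -0.015 and 0.002 for other numbers. With the replicate block the count was 1 for Q2L against Q1L (SPX1, adjusted p = 0.045) and changed nowhere else. Leaving out TMM moved 27 group levels of the 10 genes by more than 1 SD and the others by less. It put the mean of SQD2 in roots above that in leaves in every condition, opposite to its call between tissues. Over all genes DESeq2 called more than edgeR, with 526 against 215 for KFT against plate, 489 against 77 for Q2R, 1967 against 953 for Q3R, 591 against 191 for Q4R, 157 against 0 for Q2L, 54 against 2 for Q3L, 46 against 0 for Q4L, 91 against 0 among the 4 KFTs, 419 against 1 for CR and 132 against 0 for CL, each time point against Q1 and C against Q3. In the tests of root minus leaf changes it called 441 against 22 at Q2, 291 against 2 at Q3, 153 against 2 at Q4 and 430 against 7 for clinorotation. SPX3, IPS1 and MGD3 had libraries with 0 counts, and their SE were the largest of the 10 genes in most comparisons.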
